A study of Mus musculus with 3 samples.

Results

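The 10 genes described here encode 4 S100 proteins (S100a4, S100a6, S100a10 and S100a11), 2 galectins (Lgals1 and Lgals3), 3 annexins (Anxa1, Anxa2 and Anxa6) and the intermediate filament protein vimentin (Vim). They were taken by symbol from the 25906 genes of the files and had been selected on their summed counts over tissue and time in these same libraries, so those levels and ratios are given as a description. Natural killer (NK) cells, sorted alive as NK1.1+NKp46+ from lung and blood of 9-week-old female wild-type mice, were sequenced in 3 droplet libraries. The first came from naive mice, and the others from mice killed 6 h or 14 days after intravenous injection of PyMT cells, a mouse mammary tumor line driven by the polyoma middle T antigen. Lung and blood cells of a time point shared a library and carried the hashtag B0304 or B0306, which were read as lung and blood because the sources name tissues and tags in that order. The lung cells come from whole perfused lungs, so at 14 days cells of metastatic nodules and of the surrounding lung were not separated, and mice within a library could not be told apart.

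Most S100 proteins are small calcium-binding proteins, and annexins bind to membrane phospholipids when calcium rises. The 2 families meet in complexes, S100a10 with Anxa2 and S100a11 with Anxa1, that link membranes to the actin cortex. Galectins bind galactose-containing sugar chains on the cell surface, and vimentin filaments give leukocytes mechanical support. In lymphocytes, many of these genes are known to be higher in effector and memory cells than in cells that have not met antigen.

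The 6 groups (3 libraries by 2 tissues) held 2069 to 4680 cells and 16936897 to 35922737 counts of unique molecular identifiers (UMIs), with a median of 5909.5 to 7524 UMIs per cell. All 10 NK cell markers examined, Ncr1 and Klrb1c among them, lay above the limit of 3 counts in every group, with a summed level of 17516 CPM (counts per 1000000 counts of a group) in 14-day lung and 21196 to 25424 elsewhere. Markers of myeloid cells (9 genes) summed to 1.40 to 91.1 CPM, and Marco was at 0 in every group. Lyz2 alone made up 89.3 CPM in 14-day blood, where no myeloid marker was found in over 0.483% of cells. Markers of T cells (8 genes) summed to 187 to 295 CPM, of B cells (5) to 35.6 to 56.2, of ILC1 (6) to 76.2 to 152, of endothelium (5) to 52.8 to 88.3 and of neutrophils (5) to 0.0278 to 25.4. Epithelial, fibroblast and platelet lists reached at most 1.95, 0.779 and 0.251 CPM. Erythroid markers (5 genes) summed to 90.002 CPM in 14-day lung and to at most 2.57 elsewhere. Ribosomal protein genes took 22.6% of counts in 14-day lung and 18.6% in 14-day blood, against 12.98% to 15.1% in the other groups. Between 6 and 16 cell barcodes were shared by any 2 libraries, and 0 by all 3. With 1 library per time point there was no test, and all intervals given are 95% intervals that cover counting error only.

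On GRCm38, the 4 S100 genes lay on chromosome 3 within 2961 kb, all on the forward strand. S100a4 (ENSMUSG00000001020, chromosome 3 from 90603771 to 90606045) ended 6.84 kb before S100a6 (ENSMUSG00000001025, 90612882 to 90624181), and S100a11 (ENSMUSG00000027907, 93520488 to 93526287) ended 28.8 kb before S100a10 (ENSMUSG00000041959, 93555080 to 93564643). Lgals1 (ENSMUSG00000068220) lay on chromosome 15 from 78926725 to 78930465, and Lgals3 (ENSMUSG00000050335) on chromosome 14 from 47367751 to 47386160. Anxa1 (ENSMUSG00000024659) lay on the reverse strand of chromosome 19 from 20373428 to 20390944, Anxa2 (ENSMUSG00000032231) on chromosome 9 from 69453620 to 69491795, and Anxa6 (ENSMUSG00000018340) on the reverse strand of chromosome 11 from 54979108 to 55033445. Vim (ENSMUSG00000026728) lay on chromosome 2 from 13573927 to 13582826. S100a4, Anxa1 and Anxa2 overlap other annotated genes that the files do not list.

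RefSeq promoters were found for 7 of the 10 genes. The 250 bases before the RefSeq start are shown for S100a4, Vim, Anxa2 and S100a11. S100a4 and Vim were among the genes with the largest lung to blood difference at 14 days. S100a11 differed least among the S100 genes. RefSeq starts differ from the gene starts given above. The Vim stretch lies inside the gene as placed above, and the Anxa2 and S100a11 stretches run past the starts of those genes. Capitals mark the TATA box, TATAAA, and the AP-1 site of the Fos and Jun factors, TGAGTCA. For AP-1 the reverse complement TGACTCA was searched too, both motifs were searched on both strands, and no matches overlapped.
S100a4 (chr3:90603520-90603769, GRCm38.p6, forward strand): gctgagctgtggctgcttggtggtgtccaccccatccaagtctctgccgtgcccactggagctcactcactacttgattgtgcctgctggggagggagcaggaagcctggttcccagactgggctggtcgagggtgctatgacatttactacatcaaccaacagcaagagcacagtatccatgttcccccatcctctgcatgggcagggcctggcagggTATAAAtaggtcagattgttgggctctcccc
S100a11 (chr3:93520246-93520495, GRCm38.p6, forward strand): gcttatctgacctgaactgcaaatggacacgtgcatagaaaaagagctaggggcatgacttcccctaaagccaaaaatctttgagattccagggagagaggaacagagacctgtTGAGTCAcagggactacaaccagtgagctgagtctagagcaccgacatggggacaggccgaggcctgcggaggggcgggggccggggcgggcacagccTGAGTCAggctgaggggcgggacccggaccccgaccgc
Anxa2 (chr9:69453433-69453682, GRCm38.p6, forward strand): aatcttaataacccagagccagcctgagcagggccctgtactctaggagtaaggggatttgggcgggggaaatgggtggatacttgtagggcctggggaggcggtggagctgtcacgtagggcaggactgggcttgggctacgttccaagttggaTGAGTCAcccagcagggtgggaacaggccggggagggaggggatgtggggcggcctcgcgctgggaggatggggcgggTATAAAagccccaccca
Vim (chr2:13574061-13574310, GRCm38.p6, forward strand): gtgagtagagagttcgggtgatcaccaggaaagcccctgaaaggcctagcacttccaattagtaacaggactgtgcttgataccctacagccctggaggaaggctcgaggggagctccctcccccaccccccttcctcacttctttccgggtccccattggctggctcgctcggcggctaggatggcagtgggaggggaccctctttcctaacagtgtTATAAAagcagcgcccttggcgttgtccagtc
TATAAA was present in 4 of the 7 promoters (S100a4, Anxa1, Anxa2 and Vim) and in 12.4% of 32851 mouse promoters of the same length. The AP-1 letters were present in 2 of 7 (S100a11, at 136 and 38 bases before the start, and Anxa2, at 95 bases) and in 4.46% of all. TCACACC, the motif of T-box factors such as T-bet and Eomes, was present in 0 of 7 and in 3.33% of all. A match is a description of these letters and not of a bound site.

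Among the S100 genes, S100a4, a protein linked to cell motility through non-muscle myosin, stood at 115 CPM in naive lung, 119 in naive blood, 133 in 6 h lung, 128 in 6 h blood, 82.5 in 14-day lung and 214 in 14-day blood. The lowest and the highest level thus came from the same library, while lung and blood did not differ beyond their intervals in naive mice or at 6 h. Fewer cells with the transcript and less transcript per cell cannot be told apart in such sums. S100a6 (calcyclin) stood at 795, 810.0, 851, 861, 579 and 1080.5 CPM in the same order. It also had both extremes at 14 days, with naive and 6 h lung and blood overlapping within each library. S100a10, the light chain of the complex with Anxa2, stood at 1004, 1115, 1034, 1121, 827 and 1105 CPM, and the 3 blood groups formed an unbroken run with overlapping neighbours at the top. S100a11, the partner of Anxa1, stood at 352, 391, 397, 419.7, 324 and 393 CPM, with the narrowest span of the 10 genes at 1.29-fold.

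Of the galectins, Lgals1, a secreted dimer that crosslinks surface glycans, stood at 1828 CPM in naive lung, 2029 in naive blood, 2036 in 6 h lung, 2161 in 6 h blood, 1048 in 14-day lung and 2112 in 14-day blood. The other 5 groups lay within 1828 to 2161, and 14-day lung lay well under all of them. Lgals3, the galectin with a self-associating tail, ran the other way, at 17.7, 19.4, 23.02, 25.4, 36.4 and 31.9 CPM. It was higher at each later time in both tissues, and lung and blood of a library had overlapping intervals at all 3 times, although the interval of their ratio at 14 days lay above 0. Its intervals were the widest of the 10 genes, up to 10.1% above the level, against at most 4.45% for the others.

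Of the annexins, Anxa1, the glucocorticoid-linked annexin, stood at 116, 138, 125, 141, 87.4 and 119.8 CPM in the order naive lung, naive blood, 6 h lung, 6 h blood, 14-day lung and 14-day blood. Anxa2 stood at 667, 756, 720.3, 778, 460.2 and 655 CPM, and 14-day blood and naive lung did not differ beyond their intervals. Anxa6, the annexin with a duplicated core, stood at 281, 357, 281, 341, 199 and 314 CPM. Vim stood at 566, 652, 547, 599, 333 and 601 CPM, and 14-day and 6 h blood were alike within their intervals. S100a10, S100a11, Lgals1, Anxa1, Anxa2, Anxa6 and Vim were lower in lung than in blood in all 3 libraries, each time by more than counting error. The median log2 ratio of genes with a mean of at least 20 CPM was also below 0. It was -0.08 in naive mice, -0.09 at 6 h and -0.10 at 14 days. Relative to this median, Lgals1 was at 0.0009 and S100a11 at 0.008 at 6 h. In naive mice, 36.4% of these genes had a lower ratio than Lgals1, 36.2% than S100a10 and 35.9% than S100a11. At 6 h the shares were 50.1%, 43.7% and 51.7%. For Anxa6 they were the smallest of the 10, 11.7% in naive mice and 16.7% at 6 h. How many of all genes were lower in lung beyond counting error was not counted. For 9 of the 10 genes 14-day lung was the lowest of the 6 groups, and for Lgals3 it was the highest. How many of all genes were lowest there was not counted. Genes with a mean of at least 20 CPM had a median log2 ratio of -0.21 in 14-day over naive lung. Together the 10 genes took 0.398% of all UMIs in 14-day lung, 0.574% in naive lung and 0.615% to 0.663% in the other 4 groups.

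**Figure D1:**
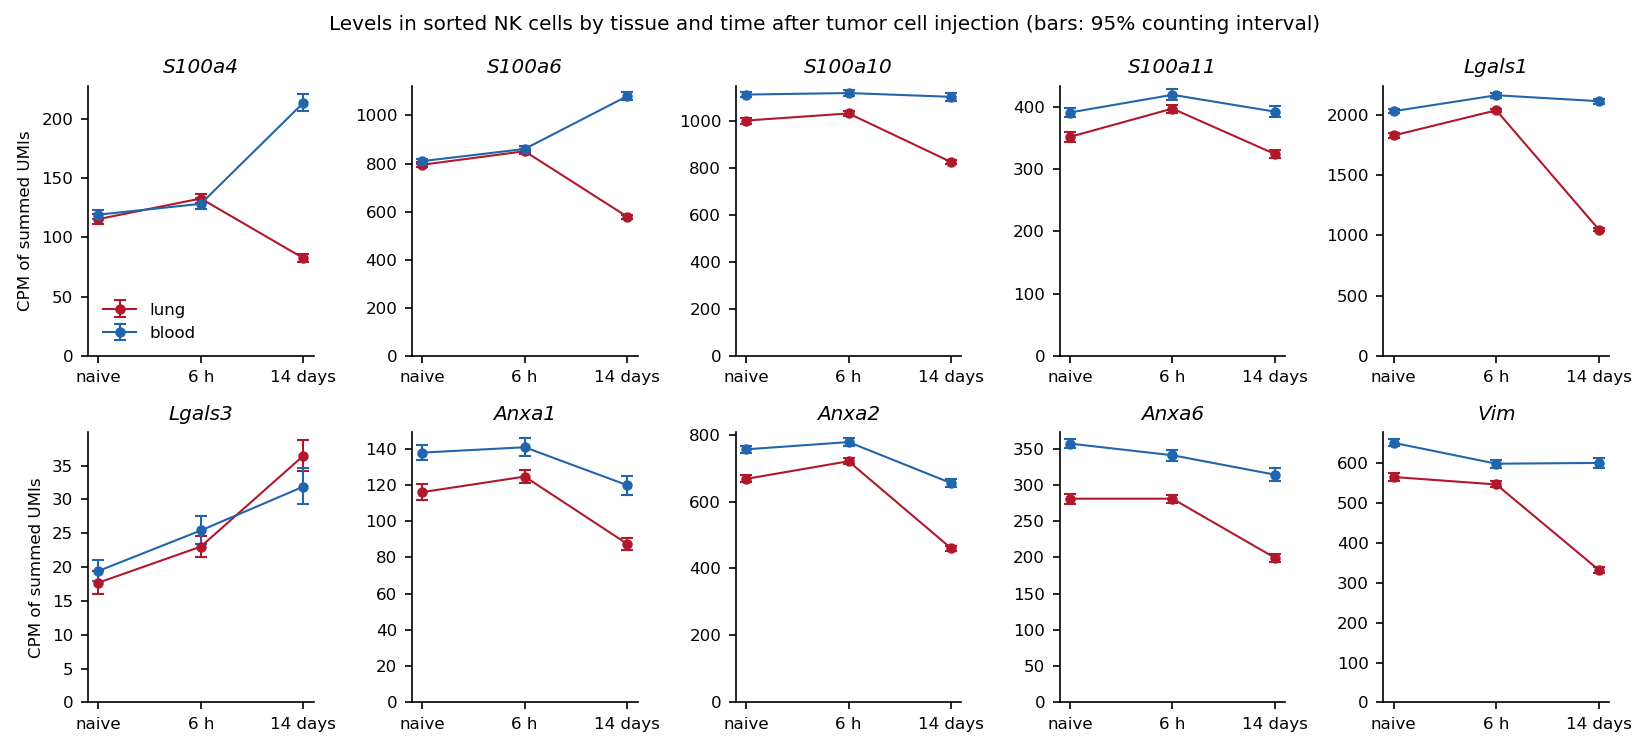
CPM of summed UMIs (linear axis from 0) for each of the 10 genes in lung (red) and blood (blue) of naive mice and 6 h and 14 days after injection, 1 library per time point, bars 95% Poisson intervals. The lung point at 14 days is the lowest of 6 for every gene except Lgals3, where it is the highest, and S100a4 and S100a6 are highest in 14-day blood.

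The comparison of lung with blood within a library asks how NK cells of the lung differ from those in circulation. In naive mice, 0 of the 10 genes were at least log2 0.5 higher or lower in lung, where 7.21% of the 6324 genes with a mean of at least 20 CPM were higher and 4.55% lower by that much. The ratios lay between -0.35 (Anxa6) and -0.03 (S100a6), with a median of -0.15 against -0.08 for all genes tested. At 6 h, 0 genes again passed in either direction (6.74% of all genes higher and 4.3% lower), with ratios from -0.28 (Anxa6) to 0.05 (S100a4). Anxa6 had the lowest ratio of the 10 genes in both libraries.

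At 14 days, 6 of the 10 genes were at least log2 0.5 lower in lung than in blood, where 5.2% of all genes were, and 0 were higher (6.09% of all genes). The ratio was -1.37 (-1.45 to -1.30) for S100a4, -1.01 (-1.03 to -0.99) for Lgals1, -0.90 (-0.93 to -0.87) for S100a6 and -0.85 (-0.90 to -0.81) for Vim. It was -0.66 (-0.71 to -0.60) for Anxa6 and -0.51 (-0.55 to -0.47) for Anxa2. Of the other 4, Anxa1 (-0.45), S100a10 (-0.42) and S100a11 (-0.28) were lower by less, and Lgals3 was 0.19 (0.04 to 0.35). The median of the 10 ratios was -0.58, against -0.10 for all genes tested. With mitochondrial and ribosomal protein genes left out of the totals, 7.15% of all genes were higher and 3.46% lower, S100a4 had a ratio of -1.30 and Lgals1 of -0.94, and Anxa2, at -0.43, no longer passed. Cells with a UMI of a myeloid marker numbered 124 in 14-day lung and 20 in 14-day blood, and without such cells the ratios of S100a4 and Lgals1 were -1.32 and -0.99. The erythroid markers were highest in the same lung group, and their part in these ratios was not tested.

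**Figure D2:**
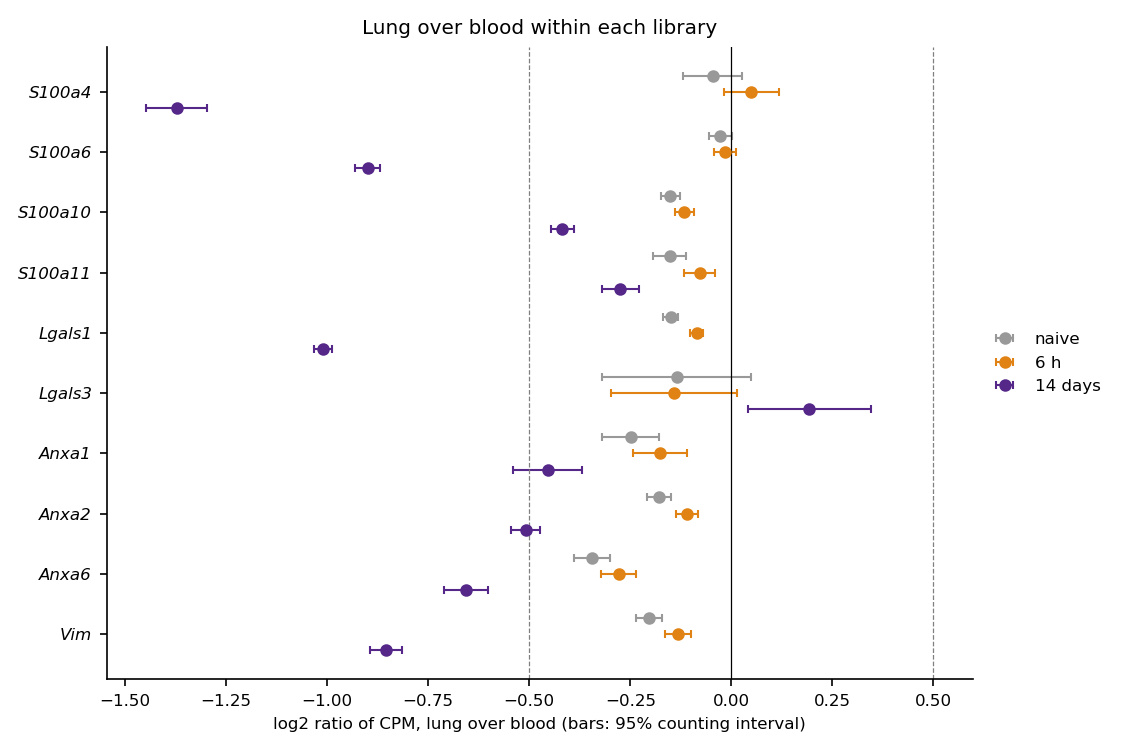
Log2 ratio of CPM, lung over blood (horizontal axis), for each gene (vertical axis) in the naive (grey), 6 h (orange) and 14-day (purple) library, bars 95% counting intervals, dashed lines at 0.5 and -0.5. All naive and 6 h points lie between the dashed lines, and at 14 days 6 genes lie left of -0.5, S100a4 farthest at -1.37.

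The comparison of 14 days with naive asks what differs once metastases have grown, and here the library and the time point cannot be told apart. In lung, 3 of the 10 genes were lower by at least log2 0.5 (16.4% of all genes) and 1 was higher (4.33% of all genes). Lgals1 had a ratio of -0.80 (-0.82 to -0.78), Vim of -0.77 (-0.81 to -0.73) and Anxa2 of -0.54 (-0.57 to -0.50). Lgals3 had a ratio of 1.04 (0.88 to 1.21), a 2.06-fold higher level. Anxa6 (-0.49), S100a4 (-0.48), S100a6 (-0.46), Anxa1 (-0.41), S100a10 (-0.28) and S100a11 (-0.12) lay below 0 without passing. The median of all genes tested was itself -0.21. Relative to it, Lgals1 was at -0.60, Vim at -0.56, Anxa2 at -0.33, S100a4 at -0.28 and S100a6 at -0.25. On the same scale S100a10 was at -0.07, S100a11 at 0.09 and Lgals3 at 1.25. With mitochondrial and ribosomal protein genes left out of the totals, the median was -0.03, the share of all genes lower was 6.62% and higher 8.05%, and Lgals1 (-0.63) and Vim (-0.59) still passed while Anxa2 (-0.36) did not. S100a11 changed sign with that scaling, to 0.06. With free RNA subtracted at 5% of counts, S100a4 and Anxa6 passed too, which made 5 genes lower.

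In blood at 14 days, 2 of the 10 genes were higher than in naive blood by at least log2 0.5 (1.15% of all genes), and 0 were lower (7.62% of all genes). S100a4 had a ratio of 0.84 (0.77 to 0.91) and Lgals3 of 0.72 (0.54 to 0.89). S100a6 came next at 0.42 (0.39 to 0.44), while Anxa1, Anxa2, Anxa6 and Vim lay between -0.21 and -0.12. All genes tested had a median of -0.17, and set against it S100a4 was at 1.01 and S100a6 at 0.58. With mitochondrial and ribosomal genes taken out of the totals, S100a6 passed as well, at 0.50, and 2.16% of all genes were higher and 2.61% lower. Without cells with a UMI of a myeloid marker, S100a4 was at 0.79 and Lgals3 at 0.56.

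The change from naive to 14 days differed between the tissues beyond counting error for all 10 genes, by sizes that ranged widely. How many of all genes did so was not counted. Lung minus blood, the change was -1.33 (-1.43 to -1.22) for S100a4, -0.87 (-0.91 to -0.83) for S100a6, -0.86 (-0.89 to -0.83) for Lgals1 and -0.65 (-0.70 to -0.60) for Vim. For S100a4 and S100a6 the difference came from a lower level in lung together with a higher level in blood, and for Lgals1 and Vim mostly from lung. Relative to the median of all genes tested, S100a4 was at -0.28 in lung and 1.01 in blood, and S100a6 at -0.25 and 0.58. The difference between the tissues was -0.33 (-0.38 to -0.28) for Anxa2, -0.31 (-0.38 to -0.24) for Anxa6, -0.27 (-0.30 to -0.23) for S100a10 and -0.21 (-0.32 to -0.10) for Anxa1. It was smallest for S100a11, at -0.12 (-0.18 to -0.06), and Lgals3 alone lay above 0, at 0.33 (0.09 to 0.56). At 6 h, the same difference lay between -0.01 and 0.10 for all 10. Small as it was, its interval lay above 0 for S100a10, S100a11, Lgals1, Anxa2, Anxa6 and Vim. For how many of all genes it did so at 6 h was not counted either, and these intervals leave out the spread between cells.

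At 6 h over naive, 0 of the 10 genes passed in lung (0.553% of all genes higher and 0.174% lower) or in blood (0.364% higher and 0.332% lower). The largest ratio was that of Lgals3, with 0.38 (0.21 to 0.55) in lung and 0.39 (0.22 to 0.56) in blood. S100a4 followed in both tissues, at 0.20 (0.13 to 0.27) in lung and 0.11 (0.04 to 0.18) in blood, and Vim was at -0.05 and -0.12. With mitochondrial and ribosomal genes taken out of the totals, 0.817% of all genes were higher and 0.102% lower in lung, and 0.555% and 0.233% in blood.

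**Figure D3:**
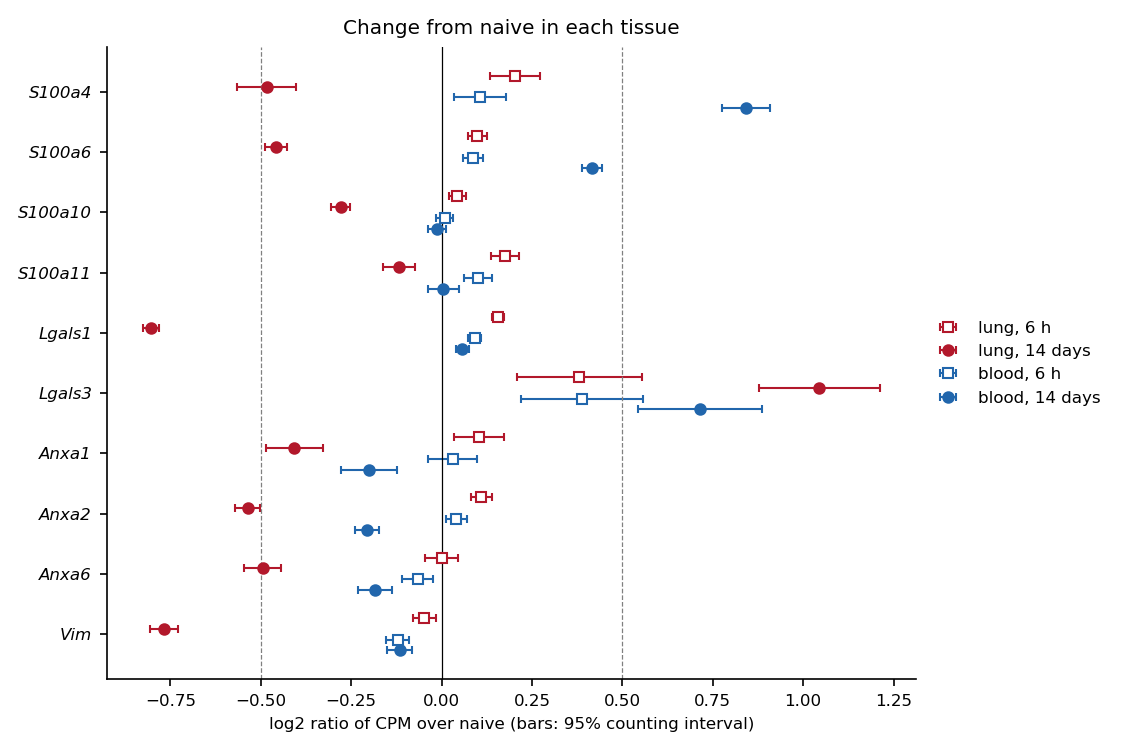
Log2 ratio of CPM over naive (horizontal axis) for each gene (vertical axis) in lung (red) and blood (blue) at 6 h (open squares) and 14 days (filled circles), bars 95% counting intervals, dashed lines at 0.5 and -0.5. The 6 h points all lie between the dashed lines, and at 14 days S100a4 lies at -0.48 in lung and 0.84 in blood while Lgals3 lies above 0.5 in both.

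Cells were next divided by Klrg1, an inhibitory receptor of mature NK cells, into those with and without a UMI of it. Both classes had nearly the same depth in 14-day lung, with a median of 7009 and 6994 UMIs per cell. In 14-day lung, 5 of the 10 genes were at least log2 0.5 higher in Klrg1-positive cells (4.76% of all genes) and 1 was lower (3.61% of all genes). S100a6 stood at 1084 CPM in the 1224 positive and 319.8 in the 2351 negative cells, a ratio of 1.76 (1.72 to 1.81). S100a4 stood at 146 and 49.9 CPM (1.55), and Lgals1 at 1784 and 669.97 CPM (1.41). Vim (0.83) and Anxa6 (0.65) passed as well, and Lgals3 went the other way with 24.3 and 42.7 CPM (-0.81).

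In the other 5 groups the same division gave smaller differences for most of these genes. S100a6 had ratios of 0.55 to 0.72, Lgals1 of 0.33 to 0.54, Vim of 0.10 to 0.18 and Anxa6 of 0.06 to 0.19. S100a4 had ratios of 0.66 to 0.88 in naive and 6 h groups, and of 0.09 (-0.01 to 0.19) in 14-day blood, where 219 CPM in positive and 205 in negative cells did not differ beyond the interval. In naive lung and naive blood, S100a4 and S100a6 passed (0.38% and 0.49% of all genes higher) and Lgals3 was lower (0.901% and 0.902%). In 6 h lung S100a4 and S100a6 passed (0.585%), with 0 lower (1.03%), and in 6 h blood Lgals1 passed in addition (0.901%), with Lgals3 lower (1.15%). In 14-day blood only S100a6 passed (0.996%) and Lgals3 was lower (1.53%). S100a11 lay between -0.20 and -0.05 in all 6 groups.

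**Figure D4:**
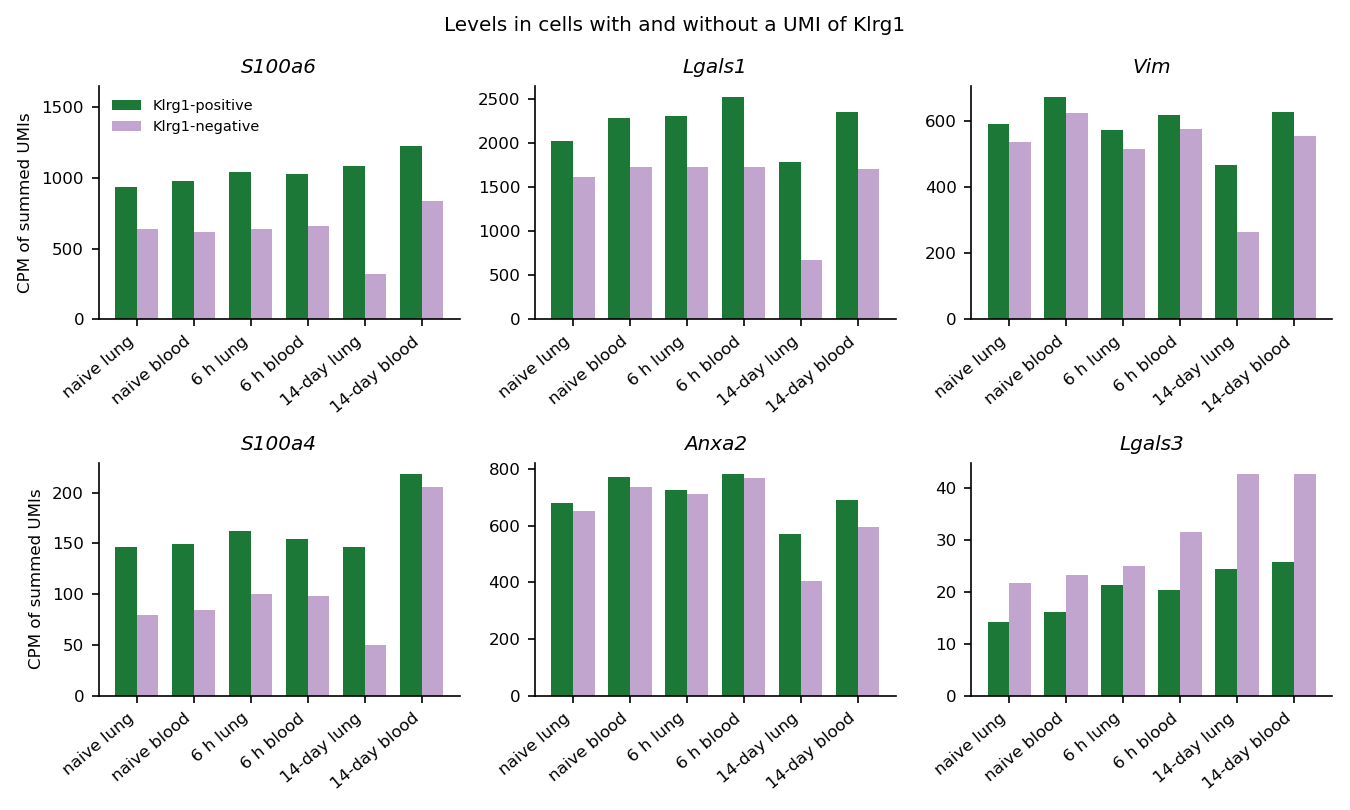
CPM of summed UMIs (linear axes from 0) of 6 of the 10 genes in Klrg1-positive (green) and Klrg1-negative (lilac) cells of each group, 1 bar per class with no replicate. In 14-day lung the negative class stands at 319.8 CPM for S100a6 against 1084 in the positive class, and Lgals3 is higher in the negative class in all 6 groups.

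The 2 classes were then compared between groups, a comparison chosen after these values had been seen. Klrg1-negative cells made up 65.8% of 14-day lung, 39.1% of 14-day blood, 48.7% of naive lung and 47.0% of naive blood. A cell without a UMI of Klrg1 may still express it, so a class may hold a different mix of cells in each group. Whether it did was not tested. In 14-day blood the median depth was 7857 UMIs in positive and 7045 in negative cells. Among Klrg1-positive cells, 1 of the 10 genes was lower in 14-day lung than in 14-day blood (2.29% of all genes), S100a4 at -0.58 (-0.68 to -0.49), and 0 were higher (5.19%). Among Klrg1-negative cells 8 were lower (7.42% of all genes) and 0 higher (6.22%), with S100a4 at -2.04, S100a6 at -1.38, Lgals1 at -1.35 and Vim at -1.07. Against naive lung, Klrg1-positive cells of 14-day lung had 0 genes lower (11.7% of all genes) and 1 higher (2.69%), Lgals3 at 0.77 (0.49 to 1.06). Their S100a4 level was 146 CPM, against 147 in Klrg1-positive cells of naive lung. Klrg1-negative cells of 14-day lung had 7 genes lower than those of naive lung (21% of all genes) and Lgals3 higher at 0.98 (5.03% of all genes higher), with Lgals1 at -1.27 and S100a6 at -0.998. In blood, S100a4 and Lgals3 were higher at 14 days than in naive mice in both classes (1.11% of all genes in positive and 1.61% in negative cells), and 0 were lower (6.9% and 11.1%). For S100a4 the ratio was 0.55 (0.47 to 0.64) in positive and 1.27 (1.16 to 1.39) in negative cells.

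Itga1 (the integrin CD49a) and Pmepa1 (a TGF-beta feedback gene) mark a population of tissue-associated NK cells, and 1734 of the 14-day lung cells had a UMI of either gene while 1841 had none. The marked cells had 7 of the 10 genes lower by at least log2 0.5 (5.52% of all genes) and 1 higher (3.97% of all genes). S100a6 stood at 281 CPM in marked and 923 in unmarked cells (-1.71, -1.77 to -1.66), and Lgals1 at 548 and 1624 CPM (-1.57, -1.60 to -1.53). S100a4 (-1.11), Vim (-0.99), Anxa6 (-0.78), Anxa2 (-0.59) and S100a10 (-0.53) were lower too. Lgals3 stood at 45.3 and 26.2 CPM (0.79, 0.60 to 0.98), and S100a11 hardly differed (-0.08). Marked cells had a higher depth, with a median of 7562 against 6599 UMIs.

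Set against all 14-day blood cells, also chosen after the values were seen, the unmarked lung cells had 1 gene lower (1.88% of all genes), S100a4 at -0.88 (-0.97 to -0.80), and 0 higher (4.79%). The marked lung cells had 8 lower (10.2% of all genes) and 1 higher (7.4%), with S100a4 at -1.99, Lgals1 at -1.95, S100a6 at -1.94 and Lgals3 at 0.51. Against all naive lung cells, unmarked cells had 0 genes lower (13% of all genes) and Lgals3 higher at 0.57 (2.7%). Marked cells had 8 lower (22.5%) and Lgals3 higher at 1.36 (5.95%). The 14-day blood and naive lung cells were not divided by Itga1 or Pmepa1.

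Maturation was read from Cd27, which is lost as mouse NK cells mature, and Itgam (CD11b), which is gained. Mature cells (Itgam-positive, Cd27-negative) were set against immature cells (Cd27-positive, Itgam-negative) in each group. Cells with a UMI of both genes or of neither were left out. Cells with neither made up 27.0% of 14-day lung and 12.8% to 18.4% of the other groups. Cells with both made up 12.6% of 14-day lung and 13.5% to 22.2% of the others. In 14-day lung, 5 of the 10 genes were higher in mature cells (11.8% of all genes) and 0 lower (4.4%). S100a6 stood at 815 CPM in mature and 240.4 in immature cells (1.76, 1.67 to 1.85), and Lgals1 at 1397 and 517 CPM (1.43). Vim (0.94), S100a4 (0.79) and Anxa6 (0.60) passed as well. Mature cells were shallower, with a median of 6743 against 9101 UMIs.

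In the other groups S100a6 and Lgals1 were higher in mature cells each time, with ratios of 0.57 to 1.15 and 0.66 to 0.95. They were the only genes that passed in naive lung (5% of all genes), naive blood (4.33%) and 6 h lung (5.16%), where Lgals3 was lower (3.72%, 3.34% and 3.45% of all genes). In 6 h blood S100a4 also passed at 0.72 (7.48% of all genes), with 0 lower (3.53%). In 14-day blood Vim (0.57) and Anxa2 (0.53) also passed (8.5% of all genes), and S100a4 was lower in mature cells (4.84% of all genes lower). It stood there at 211 CPM in 1213 mature and 375 in 169 immature cells (-0.83, -0.96 to -0.69), the opposite direction to 14-day lung (0.79, 0.60 to 0.99). In naive lung S100a4 was also lower in mature cells, at 129 against 149 CPM, without passing. It was higher in mature cells of naive blood (131 against 113 CPM) and 6 h lung (148 against 119 CPM), again without passing. With cells thinned to 3000 UMIs, 1 gene in place of 4 was higher in mature cells of 14-day blood and 1 in place of 2 in naive lung. Cd27 and Itgam were also read from the thinned counts, so the classes did not hold the same cells.

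In cells with a UMI of the cycling genes Mki67 or Top2a, 1 of the 10 genes was higher than in the remaining cells in each group, and 0 were lower. It was Lgals3 in naive lung (0.67, 1.15% of all genes higher and 0.98% lower), naive blood (0.78, 0.664% and 0.949%) and 6 h blood (1.08, 1.06% and 1.5%). It was S100a4 in 6 h lung (0.56, 0.759% and 0.395%), 14-day lung (0.59, 0.727% and 0.791%) and 14-day blood (1.00, 1.45% and 2.47%). In 14-day blood S100a4 stood at 377 CPM in 203 cycling and 188 in 1866 other cells. Cycling cells were deeper in every group, for example 10166 against 7305 UMIs in 14-day blood. Lgals1 lay between -0.11 and 0.21 and S100a10 between 0.02 and 0.13 in all groups.

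Counts per cell were compared after each cell was thinned to 3000 UMIs, which left out 6 to 86 cells per group. In 14-day lung 27.7% of cells had no UMI of Lgals1, against 3.82% to 6.98% in the other 5 groups, and 26.8% had at least 5, against 54.0% to 62.9%. S100a6 was not found in 50.2% of 14-day lung cells, against 29.1% in 14-day blood and 32.9% to 34.9% in naive and 6 h groups. Its cells with at least 10 UMIs were as frequent in 14-day lung as in naive lung, at 4.01% and 3.98%. The 10% of cells with the most S100a6 UMIs held 51.9% of them in 14-day lung and 36.9% to 40.3% elsewhere. The 10% of cells with the most S100a4 UMIs, ranked apart from S100a6, held 93.7% of them in 14-day lung. Their share was 71.8% in 14-day blood and 77.6% to 78.8% in the others. In 14-day lung 88.6% of cells had no S100a4 UMI, so 10% of cells held nearly all of them. Whether the top cells of the 2 genes were the same was not examined. Unthinned, 84.3% of 14-day lung cells and 97.3% to 99.1% of the other groups' cells had a UMI of Lgals1. In barcodes with at most 100 counts, taken as free RNA, Lgals1 stood at 0.84 to 1.69 times its level in the groups' cells. S100a4 had the widest span of the 10 genes, 0.71 to 1.84 times. Its free RNA stood at 152 CPM in the 14-day library, against 82.5 in 14-day lung and 214 in 14-day blood cells. No cell type without these transcripts was sorted, so the share of free RNA in these values was not measured.

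**Figure D5:**
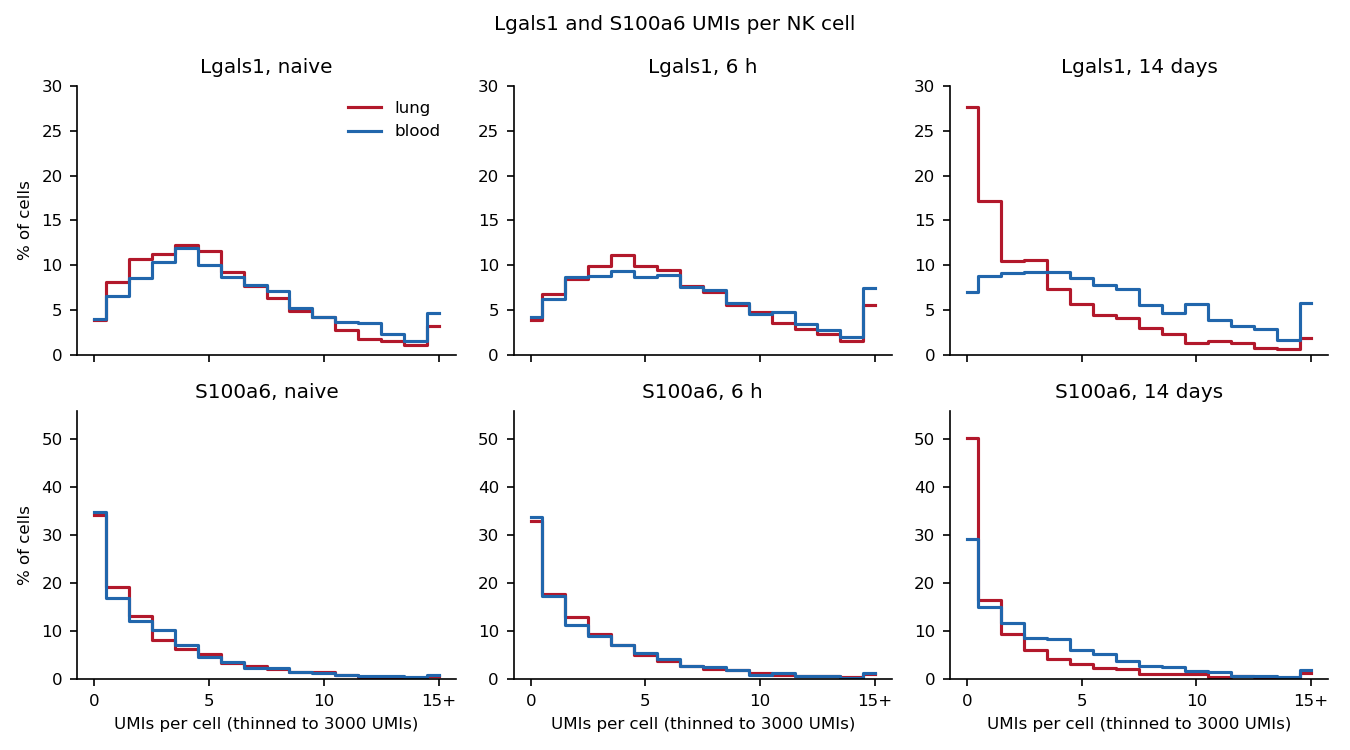
Share of cells (vertical axis, percent) by the number of Lgals1 (top) or S100a6 (bottom) UMIs per cell after thinning to 3000 UMIs (horizontal axis, 15 or more in the last step), lung in red and blood in blue, by library. Lung and blood lie together in naive and 6 h libraries, while in 14-day lung 27.7% of cells have no Lgals1 UMI and 50.2% no S100a6 UMI.

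Within groups, the 10 genes were weakly correlated from cell to cell. Over 45 pairs the highest median Pearson r across the 6 groups was 0.27, for S100a6 and Lgals1, with 0.24 to 0.29 in 5 groups and 0.49 over the 3537 cells of 14-day lung. Lgals1 and Vim reached 0.36 there, S100a4 and S100a6 0.31, and the complex partners S100a10 and Anxa2 0.12. These are descriptions of thinned counts of cells from the same libraries.

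Relatives of the 10 genes were mostly at low levels, and the lists had been chosen with earlier results known. Of 12 other S100 genes 2 reached a mean of 20 CPM, and both were lower in lung than in blood at 14 days, where 5.2% of all genes tested were. S100a13 stood at 225 CPM in 14-day lung and 357 in 14-day blood (-0.67, -0.72 to -0.62), and S100a1 at 23.6 and 35.6 (-0.59, -0.75 to -0.43). Neither passed in any other comparison. The neutrophil genes S100a8 and S100a9 stood at 4.18 and 5.24 CPM in naive lung, 9.41 and 13.3 in naive blood, and at most 1.81 in the other groups. Of 8 other galectin-related genes in the files 3 reached the minimum. Lgals3bp, a secreted galectin-3 ligand, stood at 48.8 CPM in naive lung, 53.1 in naive blood, 56.6 in 6 h lung, 59.6 in 6 h blood, 94.5 in 14-day lung and 58.1 in 14-day blood. It was the highest in 14-day lung, as Lgals3 was, with a ratio of 0.95 (0.85 to 1.06) over naive lung and 0.70 (0.60 to 0.81) over 14-day blood, where 4.33% and 6.09% of all genes were higher by log2 0.5. Lgals8 was lower in lung than in blood at 6 h (-0.52, 4.3% of all genes lower), and Lgals9 passed nowhere. Of 9 other annexins, Anxa5, Anxa7 and Anxa11 reached the minimum and 0 passed in any of the 7 comparisons.

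Of 10 intermediate filament, lamin and linker genes 3 reached the minimum, and 2 were lower in 14-day than in naive lung (16.4% of all genes). Plec, which ties vimentin filaments to other structures, was lower in 14-day lung than in 14-day blood (-0.60, 5.2% of all genes lower). It was also lower than in naive lung (-0.90, -0.98 to -0.83). Lmna was lower in 14-day than in naive lung (-0.68). Lmnb1 was higher in lung than in blood of naive mice (0.52, 7.21% of all genes higher). Lmnb1 and Lmna were higher in lung than in blood at 6 h (0.54 and 0.79, 6.74% of all genes higher). Of 15 partners and receptors 8 reached the minimum, and 3 were lower in 14-day than in naive lung (16.4% of all genes, whose median was -0.21) and 0 higher (4.33% of all genes). These were the galectin-1 ligands Spn (CD43, -0.93) and Ptprc (CD45, -0.60), and Ahnak (-0.84), a large protein bound by the S100a10 and Anxa2 complex. Between 14-day lung and blood, Spn was lower in lung (-0.57, 5.2% of all genes lower) and Itgb1 higher (0.63, 6.09% of all genes higher). Of 10 genes listed as cytoskeletal effectors, all reached the minimum and 4 were lower in 14-day lung than in 14-day blood (5.2% of all genes), with 0 higher (6.09%). They were Emp3 (-0.90), which encodes a membrane protein of the PMP22 family and no part of the cytoskeleton, the actin crosslinker Flna (-0.74), the LIM domain gene Crip1 (-0.70) and Actb (-0.54). Capg, an actin-capping protein, was higher at 14 days than in naive mice in both tissues (0.99 in lung, 0.71 in blood) and at 6 h in lung (0.55), where 4.33%, 1.15% and 0.553% of all genes were higher.

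S100a4 and Lgals1 had the widest ranges over the 6 groups, 1.37 and 1.045 on the log2 scale. Lgals3 had almost the same range as Lgals1, 1.043, but only S100a4 and Lgals1 were set against other genes. Among 3702 genes with a mean of at least 50 CPM, those most like S100a4 over the 6 groups were Yeats4 (Pearson r 0.99, range 0.38), Tmem37 (0.99, range 0.72) and Gzma (0.99, range 0.57). Gzma, the granule protease granzyme A, stood at 9435 CPM in 14-day lung, 13978 in 14-day blood and 10882 to 11619 elsewhere. Most like Lgals1 were Med30 (range 0.33), Atxn7l3b (range 0.25) and Emp3 (range 0.90), each with r of at least 0.99 after rounding, and 125 genes had an r over 0.9. For S100a4, 21 genes had an r over 0.9. With 6 points from 3 libraries, 14-day lung sets most of the values for Lgals1. For S100a4 they are set mostly by 14-day lung and 14-day blood.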

How the data were processed

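Sorted NK cells of lung and blood were measured in 3 single-cell libraries (Chromium 3′ kit 3.1). The authors deposited raw UMI counts per gene and hashtag for every barcode, with no normalization. Per the labels, reads were aligned to GRCm38.p6 and counted with Cell Ranger 7.0.1 (the file headers give 7.1.0), and Seurat 5.0 was used downstream. Depth per group is given above.

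Barcodes with 800 to 5000 genes and at most 6% mitochondrial counts were kept, and cells with 90% or more of tag counts on 1 hashtag were assigned to a tissue, 21113 in all. Cells with mixed tags (342, 158 and 134 in the naive, 6 h and 14-day library) were left out. No doublet caller was used, so doublets within a tissue stayed in. Counts were summed per group and scaled to CPM. Levels have exact Poisson intervals and ratios exact intervals conditional on the summed counts, while a difference of 2 ratios has a normal interval from the counts. A difference was counted at a log2 ratio of 0.5, a fixed size and not a test. Intervals were tested on simulated data with 200 changed genes, and 95.4% held the true ratio in the lung to blood comparison at 14 days. The simulated counts were Poisson draws, which the intervals assume, so this checks the calculation and not the fit to real cells. Over thinned cells of 14-day lung, the variance over the mean was 5.21 for S100a6 and 4.62 for Lgals1, above the Poisson value. The intervals leave out this spread between cells. Cells of a group were thinned with a fixed seed. The genes and lists were chosen with earlier results of these data known. All 10 genes are named, and of each other list the 4 genes of at least 20 CPM with the largest ratio in any comparison. Fewer are named where fewer reached that level, and Actb, S100a8 and S100a9 were chosen after their values were seen. Genes alike are the 3 with the highest correlation over the groups. Positions are from GENCODE M21 (25461 of 25906 IDs matched) and promoters from RefSeq on GRCm38.p6. Scripts ran in Python 3.11.15 with pandas 2.3.3 for tables, scipy 1.17.1 for intervals and numpy 2.4.6.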

Additional observations from a re-analysis of the deposited data

How the results depend on the processing

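Each of 70 ratios (10 genes in 7 comparisons) was recomputed under alternatives to the cell filter, the tag rule, the totals, the weight of cells, the depth, free RNA, myeloid cells and the deepest cells. Of the 12 ratios past log2 0.5, 10 stayed past it each time, and 0 changed sign. The other 2 were those of Anxa2, which ranged from -0.54 to -0.41 in lung over blood at 14 days and from -0.54 to -0.33 in lung at 14 days over naive. S100a4 and Anxa6 in lung (lowest -0.53 for both) and S100a6 in blood (highest 0.58) at 14 days over naive passed only under an alternative. Of all recomputed ratios, 549 stayed within the counting interval of the main value and 151 did not. Some ratios closer to 0 changed sign, among them those of S100a4 and S100a6 in lung over blood in naive mice and at 6 h.

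Of the counts of genes past the threshold, 172 recomputed values stayed within 1.5 times and 6 did not. With a minimum of 50 CPM, which leaves out Lgals3, 0 genes in place of 1 were higher in lung, and 1 in place of 2 in blood, at 14 days than in naive mice. With free RNA subtracted at 5%, 5 genes in place of 3 were lower in lung at 14 days than in naive lung. In mature over immature cells, thinning gave 1 gene higher in place of 2 in naive lung and 1 in place of 4 in 14-day blood, and leaving out the 5% of cells with the most UMIs gave 1 in place of 2 in naive lung. Thinning also changed which cells counted as mature or immature, and for the mature cell counts the cause was not tested. No paired analysis was possible because each time point is 1 library and the result comes from no test. With no replicate library, differences between libraries and between time points cannot be told apart, and the intervals leave out variation between mice. For Lgals3, at 17.7 to 36.4 CPM, counting error limits the comparison of lung with blood.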
